A study of Homo sapiens with 6 samples.

Results

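Transcripts of 10 genes of folate uptake, serine synthesis and one-carbon metabolism were followed among the 58735 genes of a deposited expression table. The members were taken by gene symbol: FOLR1, SLC19A1, PHGDH, PSAT1, PSPH, SHMT1, SHMT2, MTHFD2, MTHFD1L and ALDH1L2. All 10 were found, each with 1 row. The table holds 6 RNA sequencing libraries. Their labels name BxPC-3 cells, a human line established from a pancreatic adenocarcinoma, grown in serum-supplemented medium. In 3 libraries the cells had received GSK3326595, a small-molecule inhibitor of the arginine methyltransferase PRMT5, and the other 3 were the DMSO controls. The sources used here give neither dose nor duration, and do not say that replicates were separate cultures, so p-values reflect only the spread among these libraries, which may be technical. The title of the series concerns methylation of the Hippo kinase MST2 by PRMT5. The design text speaks of a knockdown, whereas the library labels name the inhibitor, and the labels were followed.

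Folate carries single carbon units on tetrahydrofolate. Cells take folate up through the GPI-anchored receptor encoded by FOLR1 and the reduced folate carrier encoded by SLC19A1. PHGDH, PSAT1 and PSPH encode the successive enzymes that make serine from the glycolytic intermediate 3-phosphoglycerate. SHMT1 in the cytosol and SHMT2 in mitochondria move a carbon unit from serine to tetrahydrofolate, and MTHFD2, MTHFD1L and ALDH1L2 process that unit within mitochondria. The units feed synthesis of purines, thymidylate and methionine, the precursor of the methyl donor that PRMT5 and other methyltransferases use.

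Values are FPKM (fragments per kilobase of listed gene length, scaled to library size), and whole reads could be recovered from them, 14087260 to 15724750 per library. PRMT5 itself stood at 12.7 ± 0.611 FPKM with the inhibitor and 24.7 ± 1.50 FPKM in DMSO (SD, n = 3 each), and was called lower by limma (adjusted p = 0.00493), with a log2 fold change of −0.90. Inhibitor replicate 2 stood apart. Its log2 values correlated with those of the other 2 inhibitor libraries at r = 0.904 and 0.906, against r = 0.980 between those 2 and 0.980 to 0.983 among DMSO libraries, over 13578 genes, which are no replicates of each other. Mitochondrial transcripts took 11.3% of its reads, against 4.70% to 6.03% in the other 5 libraries, and nuclear coding genes listed under 1500 bases took 1.09% of its nuclear coding reads, against 2.27% to 2.61%. Of 11 markers of ductal epithelium, KRT7, KRT8, KRT18, SOX9 and MUC1 were at 1 FPKM or more in every library, whereas KRT19 and CEACAM6 had 0 reads in all 6. A count of 0 allows up to 3 reads a library, which is 0.0783 to 0.096 FPKM for KRT19 and covers counting error only. EPCAM was at 0.267 to 0.341 FPKM with the inhibitor and 0.108 to 0.295 FPKM in DMSO, and CDH1, which encodes E-cadherin, at 0.375 to 0.496 and 0.0884 to 0.142 FPKM, so several defining markers of the labelled cell type were absent or low. The 11 markers summed to 791 to 1043 FPKM with the inhibitor and 676 to 756 FPKM in DMSO, mostly KRT8 and KRT18, and did not move together. MUC1 was called higher at 48.3 ± 1.20 FPKM with the inhibitor and 21.8 ± 1.80 FPKM in DMSO (limma, adjusted p = 0.0032), also with any 1 library left out. KRT7 was called lower at 103 ± 2.13 FPKM with the inhibitor and 163 ± 12.4 FPKM in DMSO (adjusted p = 0.0151), but of the fits that left out 1 library only those without inhibitor replicate 2 or 3 called it. KRT8 averaged 361 FPKM with the inhibitor and 264 FPKM in DMSO, KRT18 364 and 255 FPKM, and SOX9 2.27 and 3.67 FPKM. For these 3 genes the groups did not overlap. Limma called them without inhibitor replicate 2 but not with all libraries (adjusted p = 0.12, 0.0964 and 0.0551). With all libraries, limma-voom on recovered reads called SOX9 lower (adjusted p = 0.0459). The 4 acinar markers summed to at most 0.366 FPKM in any library, and 3 of them were at 0 in all. The 6 fibroblast markers, 3 of them at 0, summed to 5.49 to 10.4 FPKM with the inhibitor and 4.23 to 4.49 FPKM in DMSO, and the 5 immune markers to 0.866 to 1.42 and 0.539 to 1.05 FPKM. The part of these marker levels in the results below was not tested. Fewer cells of a type and less RNA per cell cannot be told apart in such bulk samples.

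Gene starts of 6 of the 10 members, SLC19A1, PHGDH, PSAT1, SHMT1, MTHFD2 and MTHFD1L, were listed among promoter windows from RefSeq (GRCh38.p14), each 250 bases before to 50 bases after a gene start. Windows of 3 of them are shown: PSAT1 and SHMT1 because their transcripts were among those called higher with the inhibitor, and MTHFD1L because its window alone among the 6 members held a match to the composite element of ATF4 and C/EBP factors. PSAT1 is at chr9:78296875-78297174 on the plus strand, SHMT1 at chr17:18363501-18363800 on the minus strand, and the first of 4 MTHFD1L windows at chr6:150866236-150866535 on the plus strand. Capitals mark matches, on both strands, to TGATGNAA (the ATF4 element), CACGTG (the E-box bound by MYC and related factors) and GGGCGG (the GC box).
PSAT1: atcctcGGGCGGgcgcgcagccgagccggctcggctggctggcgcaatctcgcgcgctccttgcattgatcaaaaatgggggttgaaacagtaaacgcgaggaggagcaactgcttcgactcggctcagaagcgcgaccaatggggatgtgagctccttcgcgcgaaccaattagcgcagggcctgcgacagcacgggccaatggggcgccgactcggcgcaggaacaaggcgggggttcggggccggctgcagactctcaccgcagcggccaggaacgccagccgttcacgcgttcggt
SHMT1: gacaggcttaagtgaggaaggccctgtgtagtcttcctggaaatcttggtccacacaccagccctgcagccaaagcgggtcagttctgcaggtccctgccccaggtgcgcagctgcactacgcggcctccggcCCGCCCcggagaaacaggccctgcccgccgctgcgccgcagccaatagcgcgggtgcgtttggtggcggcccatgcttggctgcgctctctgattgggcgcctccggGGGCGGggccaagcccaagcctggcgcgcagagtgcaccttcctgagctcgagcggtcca
MTHFD1L: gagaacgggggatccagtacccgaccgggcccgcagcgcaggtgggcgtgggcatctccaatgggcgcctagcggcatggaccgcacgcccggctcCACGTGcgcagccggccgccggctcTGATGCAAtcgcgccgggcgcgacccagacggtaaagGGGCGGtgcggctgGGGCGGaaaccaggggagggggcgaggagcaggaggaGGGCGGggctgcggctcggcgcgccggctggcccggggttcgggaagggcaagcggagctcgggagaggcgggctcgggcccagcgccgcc
The MTHFD1L window holds 1 E-box, 1 ATF4-type match and 3 GC boxes, the SHMT1 window 2 GC boxes and the PSAT1 window 1 GC box, and no match overlaps another. Over all 35116 windows, 3.62% hold TGATGNAA, 7.26% CACGTG and 45.0% GGGCGG. The MTHFD1L windows that hold the first and second motif are overlapping windows of neighbouring starts, 3 of its 4. Of the 4 SLC19A1 windows 1 held an E-box. A match describes letters only.

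By FPKM, FOLR1 was the most abundant transcript of any nuclear protein-coding gene in all 3 DMSO libraries, and it fell with the inhibitor. FOLR1 (ENSG00000110195, chromosome 11, 72189558 to 72196323, hg38) stood at 752, 392 and 795 FPKM in inhibitor replicates 1, 2 and 3, against 2714, 2713 and 3167 FPKM in the DMSO replicates. The groups were far apart, and inhibitor replicate 2 was the lowest library. Means were 646 ± 221 FPKM with the inhibitor and 2864 ± 262 FPKM in DMSO (SD, n = 3 each), a level 4.43-fold lower with the inhibitor, or 3.70-fold lower without inhibitor replicate 2. Among 19938 nuclear protein-coding genes ranked by FPKM, FOLR1 was at ranks 11, 25 and 11 with the inhibitor and at rank 1 in every DMSO library. Between 8638 and 77274 reads per library lay behind these values, so counting error was small beside the spread of replicates. The relatives of FOLR1 were scarce. FOLR2 averaged 0.0607 FPKM with the inhibitor and 0.144 FPKM in DMSO, on 0 to 6 reads per library. FOLR3 was at 0 in the inhibitor libraries and at 0.285 ± 0.0383 FPKM in DMSO, on 0 to 7 reads per library. An antisense gene on the opposite strand, AP000812.1, averaged 0.223 FPKM with the inhibitor and 0.841 FPKM in DMSO.

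The carrier SLC19A1 (ENSG00000173638, chromosome 21, 45493572 to 45544411) also fell. Its values were 3.11, 2.88 and 3.56 FPKM with the inhibitor, against 4.94, 4.31 and 5.72 FPKM in DMSO, a level 1.57-fold lower with the inhibitor on the ratio of means. All 3 inhibitor libraries were below all 3 DMSO libraries. Because FOLR1 fell further, the ratio of FOLR1 to SLC19A1 FPKM was 242, 136 and 223 in inhibitor libraries, against 549, 629 and 553 in DMSO libraries. COL18A1 overlaps SLC19A1 on the opposite strand and stood at 7.27 ± 1.95 FPKM with the inhibitor and 6.42 ± 0.561 FPKM in DMSO. The counting is not stated to use strand, and without it reads from a pair of overlapping genes cannot be told apart. SLC46A1 of the folate transport list stood at 1.24, 0.963 and 1.06 FPKM with the inhibitor, against 0.669, 0.540 and 0.758 FPKM in DMSO. Its inhibitor libraries were all higher, on 62 to 159 reads per library. SLC46A1 did not reach 1 FPKM in 3 libraries, so it was not tested.

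**Figure D1:**
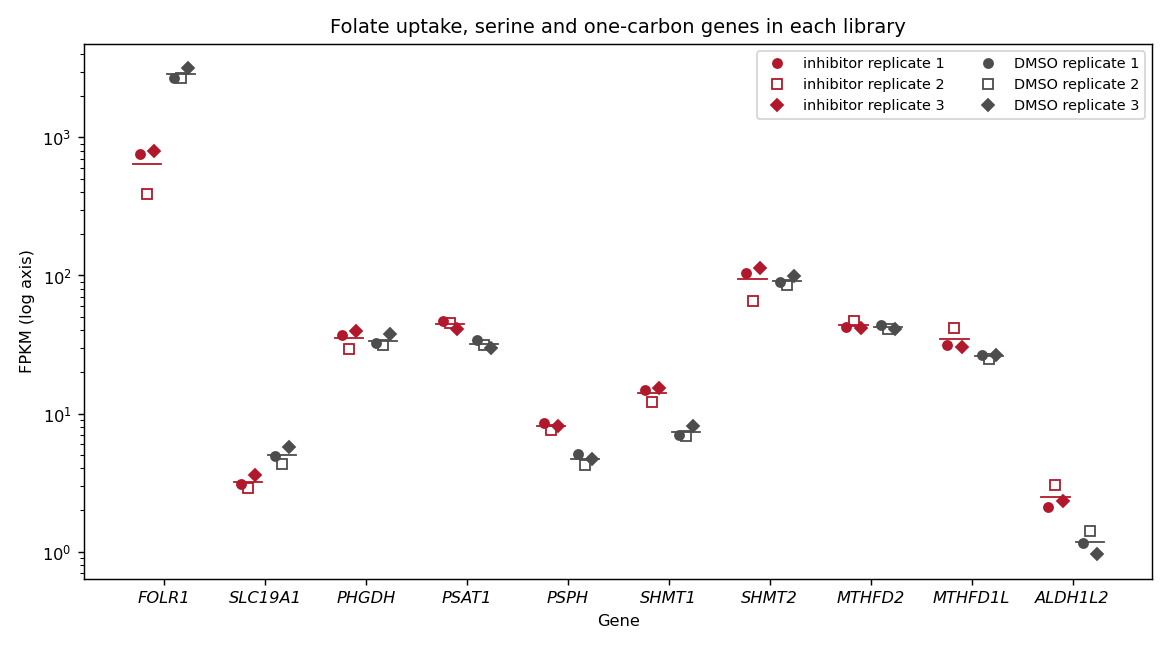
FPKM of each of the 10 genes (log axis) in the 3 inhibitor libraries, left and red, and the 3 DMSO libraries, right and grey; symbols give the replicate and short lines the group means. FOLR1 lies far above the other genes in both groups, at 392 to 795 FPKM with the inhibitor and 2713 to 3167 FPKM in DMSO.

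In the serine synthesis pathway the final 2 enzymes rose and the first did not pass. PHGDH (chromosome 1, 119648411 to 119744226), which oxidises 3-phosphoglycerate, stood at 37.3, 29.3 and 39.3 FPKM with the inhibitor, against 32.3, 31.2 and 37.6 FPKM in DMSO, and the groups overlapped. PSAT1 (ENSG00000135069, chromosome 9, 78297143 to 78330093), the aminotransferase of the pathway, stood at 47.0, 45.6 and 40.6 FPKM with the inhibitor, against 34.1, 31.6 and 30.0 FPKM in DMSO. All inhibitor libraries were higher, 1.39-fold on the ratio of means. PSPH (ENSG00000146733, chromosome 7, 56011051 to 56051604), the phosphatase that releases serine, had 8.57, 7.60 and 8.06 FPKM with the inhibitor, against 5.12, 4.20 and 4.67 FPKM in DMSO. Its level was 1.73-fold higher with the inhibitor and the groups did not overlap. PSPHP1, a pseudogene named for PSPH, was listed at 37.6 ± 13.4 FPKM with the inhibitor and 29.6 ± 1.07 FPKM in DMSO, so the division of reads between the copies, and with it the PSPH value, is uncertain. Summed over the 3 enzymes, FPKM came to 92.9, 82.5 and 88.0 in inhibitor libraries and 71.5, 67.0 and 72.3 in DMSO libraries.

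The serine hydroxymethyltransferases differed from each other. SHMT1 (ENSG00000176974, chromosome 17, 18327860 to 18363563), the cytosolic enzyme, stood at 14.7, 12.1 and 15.4 FPKM with the inhibitor, against 6.96, 6.85 and 8.16 FPKM in DMSO. It was 1.92-fold higher with the inhibitor, or 2.05-fold without inhibitor replicate 2, with every inhibitor library above every DMSO library. SHMT2 (ENSG00000182199, chromosome 12, 57229327 to 57234935), the mitochondrial enzyme, stood at 105, 65.3 and 112 FPKM with the inhibitor, against 90.3, 85.8 and 99.0 FPKM in DMSO. Here inhibitor replicates 1 and 3 were above every DMSO library and inhibitor replicate 2 below every one. SHMT2 was therefore 7.11, 5.41 and 7.32 times SHMT1 in the inhibitor libraries, against 13.0, 12.5 and 12.1 times in the DMSO libraries, on FPKM. Both genes overlap others on the opposite strand. SMCR8, which overlaps SHMT1, stood at 7.63 ± 1.78 FPKM with the inhibitor and 8.18 ± 0.751 FPKM in DMSO, and NDUFA4L2, which overlaps SHMT2, at 32.9 ± 22.4 and 5.82 ± 0.172 FPKM.

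**Figure D2:**
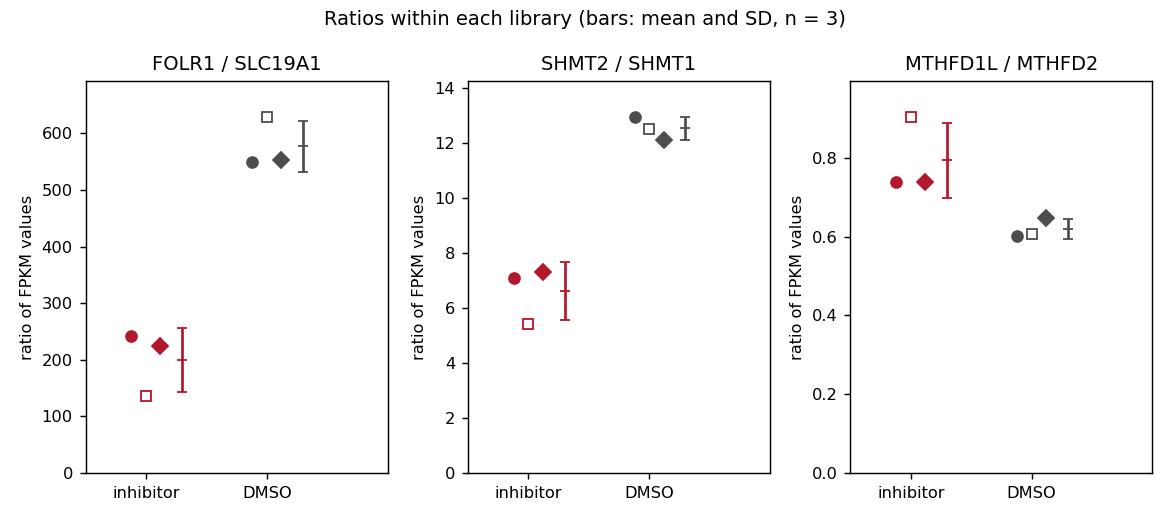
Ratios of FPKM within each library for 3 pairs of genes, with inhibitor libraries left in red and DMSO libraries right in grey; open squares are replicate 2, bars give mean and SD. The SHMT2 to SHMT1 ratio is 5.41 to 7.32 in inhibitor libraries and 12.1 to 13.0 in DMSO libraries.

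The mitochondrial enzymes downstream of SHMT2 had 1 called gene, ALDH1L2. MTHFD2 (chromosome 2, 74198562 to 74217565), a dehydrogenase and cyclohydrolase, stood at 42.6, 46.4 and 41.3 FPKM with the inhibitor, against 44.0, 41.1 and 41.0 FPKM in DMSO. Its groups overlapped, and replicates were close, with a coefficient of variation of 6.14% with the inhibitor and 3.95% in DMSO. MTHFD1L (chromosome 6, 150865549 to 151101887), the mitochondrial formyl-tetrahydrofolate synthetase, stood at 31.4, 42.0 and 30.5 FPKM with the inhibitor, against 26.4, 24.9 and 26.6 FPKM in DMSO. The groups did not overlap, and inhibitor replicate 2 was the highest library, but the gene was not called. Relative to MTHFD2, MTHFD1L FPKM was 0.737, 0.904 and 0.739 in inhibitor libraries, against 0.602, 0.606 and 0.647 in DMSO libraries. ALDH1L2 (ENSG00000136010, chromosome 12, 105019784 to 105084577), which oxidises formyl-tetrahydrofolate to carbon dioxide, rose. Its values were 2.09, 3.03 and 2.34 FPKM with the inhibitor, against 1.16, 1.41 and 0.953 FPKM in DMSO, a level 2.12-fold higher with the inhibitor, or 1.89-fold without inhibitor replicate 2. C12orf45, on the opposite strand, averaged 1.02 FPKM with the inhibitor and 0.757 FPKM in DMSO.

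The members had been selected on their roles with these same inhibitor and DMSO values known, so what follows describes them and supports nothing further. In a limma fit over the 13578 genes that reached 1 FPKM in 3 libraries or more, all 10 members among them, a gene was called at a Benjamini-Hochberg adjusted p under 0.05. Of all genes tested 17.2% were called, 7.18% higher and 10.0% lower with the inhibitor, and 6 of the 10 members were: SHMT1, PSPH, ALDH1L2 and PSAT1 higher, FOLR1 and SLC19A1 lower. The log2 fold changes of FPKM + 1, a scale that understates the change of low genes, were −2.21 (SE 0.29) for FOLR1 and −0.51 (SE 0.13) for SLC19A1. They were 0.85 (SE 0.13) for SHMT1, 0.68 (SE 0.11) for PSPH, 0.68 (SE 0.16) for ALDH1L2 and 0.46 (SE 0.12) for PSAT1. The uncalled members were MTHFD1L at 0.39 (SE 0.15), PHGDH at 0.06 (SE 0.15), MTHFD2 at 0.05 (SE 0.11) and SHMT2 at 0.00098 (SE 0.22). The median of the 10 was 0.22 and that of all genes tested −0.05. The groups did not overlap for 7 members, 5 higher and 2 lower, as for 45.9% of all genes tested, 19.2% higher and 26.7% lower.

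Each library was left out in turn, and FOLR1 kept its call in all 6 such fits. SHMT1 was called in 4 of them, losing its call without DMSO replicate 1 or DMSO replicate 2, and PSPH in 2, those without inhibitor replicate 2 or inhibitor replicate 3. SLC19A1, PSAT1 and ALDH1L2 were called in 1 of the 6, the fit without inhibitor replicate 2. In that fit 7 members were called, the 6 above and MTHFD1L (log2 fold change 0.24, SE 0.061), 5 higher and 2 lower, while 40.6% of all genes tested were called, 17.5% higher and 23.1% lower. SHMT2 stood at a log2 fold change of 0.24 (SE 0.078) there, uncalled, and its sign was negative without inhibitor replicate 1 or 3 and without DMSO replicate 1 or 2, and on TPM or recovered reads. PHGDH was negative without inhibitor replicate 3 and MTHFD2 without inhibitor replicate 2. No sign changed for the 6 called members in any alternative run. Inhibitor replicate 2 was below all other 5 libraries for FOLR1, SLC19A1, PHGDH and SHMT2, and above them for MTHFD2, MTHFD1L and ALDH1L2.

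**Figure D3:**
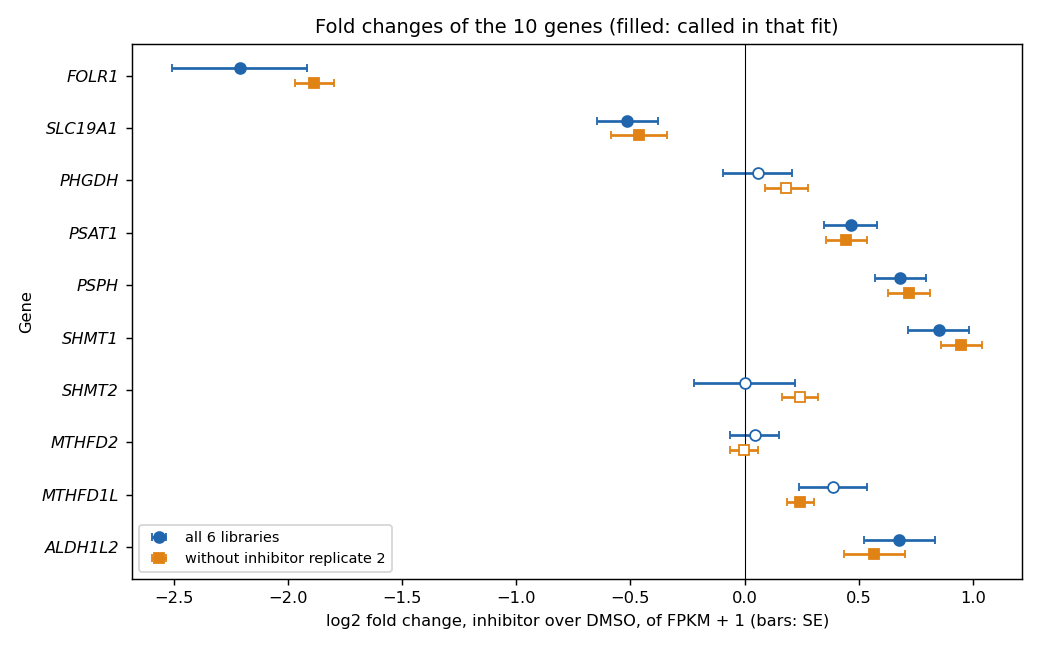
Log2 fold changes (inhibitor over DMSO, FPKM + 1) with standard errors for the 10 genes, with all 6 libraries (circles) and without inhibitor replicate 2 (squares); filled symbols were called in that fit. FOLR1 is at −2.21 with all libraries and −1.88 without that one, and SHMT2 at 0.00098 and 0.24.

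The order of levels, on FPKM, was similar at the top in both groups. With the inhibitor the means ran FOLR1 (646), SHMT2 (94.1), PSAT1 (44.4), MTHFD2 (43.4), PHGDH (35.3), MTHFD1L (34.6), SHMT1 (14.0), PSPH (8.08), SLC19A1 (3.18) and ALDH1L2 (2.49). There the ranges of the neighbours PSAT1 and MTHFD2, PHGDH and MTHFD1L, and SLC19A1 and ALDH1L2 overlapped. In DMSO the order was FOLR1 (2864), SHMT2 (91.7), MTHFD2 (42.0), PHGDH (33.7), PSAT1 (31.9), MTHFD1L (26.0), SHMT1 (7.32), SLC19A1 (4.99), PSPH (4.66) and ALDH1L2 (1.17). PHGDH and PSAT1, and SLC19A1 and PSPH, were the neighbours whose ranges overlapped in DMSO. The 9 members other than FOLR1 summed to 280 ± 22.2 FPKM with the inhibitor and 244 ± 11.3 FPKM in DMSO (SD, n = 3 each), less than FOLR1 alone in either group.

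Other genes of the pathway were read from lists of folate transport, folate interconversion, glycine cleavage, serine transport and purine synthesis. Of 37 genes reported from these lists, 24 were tested and 2 were called, SLC1A4 and IMPDH2, both higher with the inhibitor. That is 8.33%, where 17.2% of all genes were called in either direction and 7.18% higher. At an unadjusted p under 0.05, 6 of the 24 were higher (25.0%) and 1 lower (4.17%), against 14.6% and 20.0% of all genes tested. The median log2 fold change of the 24 was 0.15, against −0.05 for all genes tested.

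SLC1A4, a transporter of alanine and serine, stood at 4.92, 6.97 and 4.60 FPKM with the inhibitor, against 2.07, 2.18 and 2.27 FPKM in DMSO (log2 fold change 1.02, SE 0.16, adjusted p = 0.0111, limma). All 3 inhibitor libraries were above all 3 DMSO libraries, and inhibitor replicate 2 was the highest. IMPDH2, the dehydrogenase on the route to guanine nucleotides, stood at 107, 113 and 104 FPKM with the inhibitor, against 73.5, 71.3 and 81.8 FPKM in DMSO (0.51, SE 0.11, adjusted p = 0.0297). Its groups did not overlap either. With 1 library left out in turn, SLC1A4 was called in 3 of 6 fits (not without any DMSO replicate) and IMPDH2 in 1, that without inhibitor replicate 2. In that fit 7 of the 24 genes (29.2%) were called, 6 higher and 1 lower, and 40.6% of all genes tested, 17.5% higher and 23.1% lower.

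In folate transport, folate interconversion and glycine cleavage limma and limma-voom with all libraries and the filter called 0 of 8 genes tested. Of these, 1 (FPGS) had an unadjusted p under 0.05. Without the filter 19 genes were tested and 1 was called, FOLR3, which had 0 to 7 reads per library. The polyglutamate synthetase FPGS stood at 41.4 ± 4.70 FPKM with the inhibitor and 32.3 ± 3.77 FPKM in DMSO (log2 fold change 0.35, adjusted p = 0.138, limma). It was called higher without inhibitor replicate 2 (0.44, adjusted p = 0.0187), with quantile normalization (0.52, adjusted p = 0.0307) and with length and GC trends removed (0.51, adjusted p = 0.0159). The hydrolase GGH, which removes those glutamates, stood at 15.0 ± 2.19 and 19.0 ± 2.53 FPKM (−0.32, adjusted p = 0.192). In folate interconversion MTHFD1, the cytosolic trifunctional enzyme, stood at 29.2 ± 7.31 FPKM with the inhibitor and 21.6 ± 0.955 FPKM in DMSO (0.39, adjusted p = 0.175), and the thymidylate synthase TYMS at 10.9 ± 1.71 FPKM with the inhibitor and 9.70 ± 0.440 FPKM in DMSO (0.14, adjusted p = 0.491). In the glycine cleavage system DLD stood at 21.2 ± 3.61 FPKM with the inhibitor and 19.1 ± 1.03 FPKM in DMSO (0.14, adjusted p = 0.526) and GCSH at 2.77 ± 0.356 and 1.98 ± 0.599 FPKM (0.36, adjusted p = 0.219). ALDH1L1, the cytosolic relative of ALDH1L2, averaged 0.00298 FPKM with the inhibitor and 0 FPKM in DMSO, and the glycine decarboxylase GLDC 0.00686 and 0.0225 FPKM, both far below the filter.

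**Figure D4:**
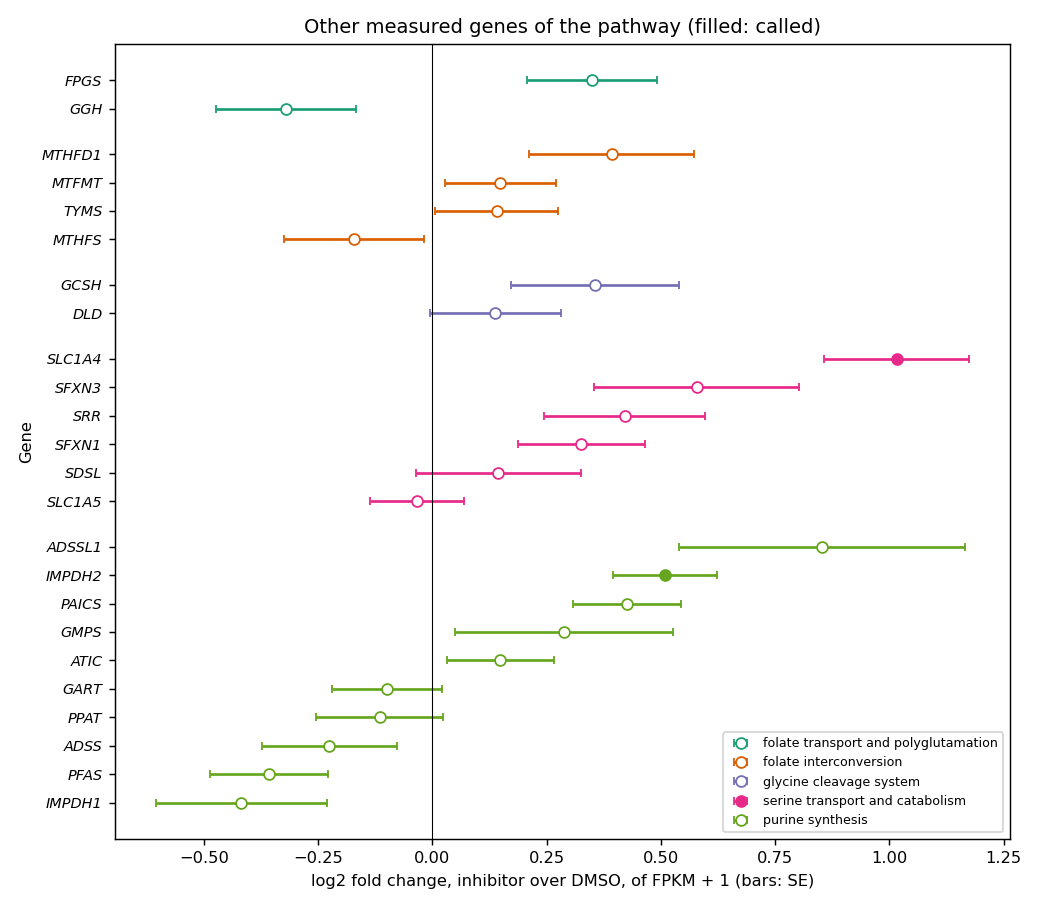
Log2 fold changes (inhibitor over DMSO, FPKM + 1) with standard errors of the 24 other pathway genes reported and tested, coloured by list; filled circles were called. The 2 called genes are SLC1A4 at 1.02 and IMPDH2 at 0.51.

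Of 3 transcription factors known to activate serine synthesis genes, 0 were called by limma with all libraries, 0 had an unadjusted p under 0.05, and limma-voom on recovered reads called 0. ATF4 stood at 73.6, 40.2 and 69.4 FPKM with the inhibitor, against 82.1, 85.4 and 91.2 FPKM in DMSO (log2 fold change −0.54, SE 0.24, adjusted p = 0.164), and was called lower without inhibitor replicate 2 (−0.27, SE 0.067). MYC stood at 135, 73.2 and 141 FPKM with the inhibitor, against 147, 135 and 150 FPKM in DMSO (−0.36, adjusted p = 0.368). NFE2L2 averaged 12.0 ± 1.89 FPKM with the inhibitor and 11.7 ± 1.05 FPKM in DMSO (0.03, adjusted p = 0.901; negative without inhibitor replicate 2, without DMSO replicate 3 and on TPM). Protein levels of these factors were not measured.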

How the data were processed

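Total RNA was sequenced from a directional library kit (per the labels' protocols), and the submitters' processing notes name hg38 as the build. These sources do not name the aligner, counter, annotation release or strand setting. The authors deposited FPKM values for 58735 genes in 6 libraries with a listed length per gene. Columns were matched to libraries by title. Dividing FPKM times length by 1 factor per library gave whole reads, within 0.01 reads, for 100% of values above 0.

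The 13578 genes that reached 1 FPKM in 3 libraries or more were fitted as log2(FPKM + 1) with limma 3.58.1 in R 4.3.3. The test was two-sided, used a mean-variance trend and no block, and was adjusted by Benjamini-Hochberg over all of them at a threshold of 0.05. The fit was also run on simulated data drawn with the same spread in every library. No simulated library stood apart as inhibitor replicate 2 did, so that run does not cover such a library. The test planned for FPKM was used as written. Libraries of 1 group differed by more than sampling noise (chi-square per degree of freedom 2.475 to 98.73), so none was taken as another deposited again; this does not show separate cultures. Tables were read with Python 3.11.15, numpy 2.4.6 and pandas 2.3.3, and plots drawn with matplotlib 3.10.9. GC content came from GENCODE 29 transcripts and promoter windows from RefSeq.

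The members, gene lists and tests were chosen with earlier results of these data known, and the motifs after the values were seen. Named were the 10 members, PRMT5, ATF4, MYC and NFE2L2; of each other pathway list the called genes whose groups did not overlap or, where there was none, the 2 most abundant; and the 3 genes of most similar pattern to the members with the largest fall and the largest rise. Some genes of these lists and patterns are not reported here and are outside the lists' counts. Alternatives were a pseudocount of 0.1, no filter, a filter at 5 FPKM, TPM, quantile normalization, no trend, a replicate block, removal of length and GC trends, limma-voom on recovered reads and leaving out each library. Relatives, pseudogenes and overlapping genes of the members, SLC46A1, ALDH1L1, GLDC and the markers given with values were named after their values were seen.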

Additional observations from a re-analysis of the deposited data

How the results depend on the processing

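Results are limited by 3 libraries a group and by inhibitor replicate 2. Leaving out 1 library gave 478 to 5513 called genes (3.52% to 40.6% of those tested), against 2339 (17.2%) with all. Called members were 1 to 7 against 6, and other called pathway genes 0 to 7 of 24 against 2. The 0 came without DMSO replicate 1, 2 or 3. There limma gave 3, 3 and 4 of the 24 higher at an unadjusted p under 0.05, against 10.4%, 10.4% and 11.0% of all genes. It gave 0, 1 and 1 lower, against 14.1%, 14.6% and 14.4% of all genes. Dropping the filter gave 1533 called genes (4.91% of 31192 tested) and 2 of 10 members (SHMT1 and PSPH). FOLR1 was still at −2.21 but not called (adjusted p = 0.054, limma), with an SE of 0.45 against 0.29 with the filter. More genes were tested there, and the cause was not tested further. At 5 FPKM fewer genes were tested, and 1505 of 7382 (20.4%) were called. So were 4 of the 8 members tested, SLC19A1 and ALDH1L2 not being among them, and 1 of 18 other pathway genes (5.56%). With length and GC trends removed 4062 genes (29.9% of those tested) and 7 of 24 other pathway genes (29.2%) were called. With quantile normalization 5 of these 24 (20.8%) were called, against 15.4% of all genes tested. The cause was not tested. Quantile normalization gave 1037 higher and 1053 lower genes, against 975 and 1364, and moved the median of all genes from −0.05 to −0.00058.

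PRMT5 stayed called, at −0.97 to −0.74, in every alternative run. Of the called members, SLC19A1 lost its call with quantile normalization and the replicate block and PSAT1 on TPM and with the block. The replicate block gave 1478 called genes (10.9% of those tested), 4 of 10 members and 1 of 24 other pathway genes (4.17%). Deviations of same-numbered libraries correlated at r = −0.018, 0.157 and 0.248 for replicates 1, 2 and 3, and those of differently numbered ones at −0.209 to 0.092. The values for replicates 2 and 3 were thus the highest, but that for replicate 1 was not. The numbers are therefore not shown to pair the libraries.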

Other observations

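Over the 6 libraries, the genes whose centred log2 values lay nearest to those of FOLR1, by Euclidean distance among 13577 genes, were ZFP36 (distance 0.187), LY6K (0.232) and TGM2 (0.295). ZFP36, which encodes a protein that promotes decay of AU-rich messenger RNAs, averaged 7.30 ± 3.05 FPKM with the inhibitor and 37.9 ± 2.72 FPKM in DMSO (SD, n = 3 each). LY6K, a GPI-anchored surface protein gene, averaged 8.06 ± 2.71 FPKM with the inhibitor and 38.2 ± 2.22 FPKM in DMSO, and TGM2, the tissue transglutaminase, 3.76 ± 1.31 and 22.2 ± 2.47 FPKM. All are far less abundant than FOLR1.

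Among the nearest to SHMT1 were CCDC18-AS1 (distance 0.124) and FBXO43 (0.127). CCDC18-AS1 averaged 5.42 ± 0.989 FPKM with the inhibitor and 2.43 ± 0.171 FPKM in DMSO. FBXO43, an F-box protein gene, averaged 1.27 ± 0.235 FPKM with the inhibitor and 0.320 ± 0.0929 FPKM in DMSO. It passed the filter of 1 FPKM through the inhibitor libraries alone, so its place here depends partly on that filter. These distances describe the 6 libraries and carry no test.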
